A study of Mus musculus with 32 samples.

Results

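The lung of vehicle-injected mice was set against the testis, spleen and liver of vehicle-injected mice to find the genes that distinguish it. The lung group consisted of the 2 arrays labelled as lung after vehicle, and the comparison group of the 6 arrays labelled as testis, spleen or liver after vehicle, 2 per organ, together 8 of the 32 arrays of the series. All mice were NIH Swiss males, an outbred strain, aged 7 weeks, and their organs were taken 24 hours after a single intravenous injection. The vehicle was 5% dextrose, and the other 24 arrays came from the same 4 organs after CBL0137, a DNA-binding compound that acts on the histone chaperone FACT, at 30, 60 or 90 mg/kg, 2 arrays for each organ and dose. Total RNA of each sample was hybridised to an Illumina BeadChip, a 1-colour microarray, and the values below are background-subtracted, quantile-normalized signals in arbitrary units, in which values near or below 0 are background. The series was made to ask what CBL0137 does in organs with and without FACT, and its vehicle arrays also show what each organ expresses without the compound. Nothing in the sources used here tells if the 2 arrays of an organ stand for separate animals or pools. The p-values therefore measure only the spread between these arrays, and the number of arrays limits the precision.

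The lung exchanges gas across a wall formed by flat alveolar type 1 cells, a thin basement membrane and a dense capillary network. Cuboidal alveolar type 2 cells secrete surfactant, a mixture of lipids and surfactant proteins that lowers surface tension, and club, goblet and multiciliated cells line the conducting airways. The transcription factor NKX2-1 specifies lung epithelium and is known to act on the promoters of surfactant and secretoglobin genes.

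The promoters of 4 leading genes are shown because they carry the epithelial pattern described below. Sftpb and Sftpa1 encode surfactant proteins of type 2 cells, and Ager and Cldn18 encode a receptor and a tight junction protein of type 1 cells. Each sequence is from RefSeq (build GRCm38.p6) and runs 5′ to 3′ along the gene's strand, with 250 bases before and 50 bases after the annotated start. They lie at chr6:72304360-72304659 (plus strand) for Sftpb, chr14:41131538-41131837 (plus strand) for Sftpa1, chr17:34597600-34597899 (plus strand) for Ager, and chr9:99717218-99717517 and chr9:99710014-99710313 (minus strand), 2 alternative starts, for Cldn18. Capitals mark matches on either strand to CTCAAG, a core of NKX2-1 sites, TNTTTAC, a core of forkhead sites, CATTCC, the TEAD core, or TATAAA, the TATA box.
Sftpb: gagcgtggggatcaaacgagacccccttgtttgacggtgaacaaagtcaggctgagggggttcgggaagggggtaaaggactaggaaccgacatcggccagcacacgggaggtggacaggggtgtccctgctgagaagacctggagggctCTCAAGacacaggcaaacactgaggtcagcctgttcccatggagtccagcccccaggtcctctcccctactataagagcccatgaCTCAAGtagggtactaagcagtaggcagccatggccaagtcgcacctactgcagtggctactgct
Sftpa1: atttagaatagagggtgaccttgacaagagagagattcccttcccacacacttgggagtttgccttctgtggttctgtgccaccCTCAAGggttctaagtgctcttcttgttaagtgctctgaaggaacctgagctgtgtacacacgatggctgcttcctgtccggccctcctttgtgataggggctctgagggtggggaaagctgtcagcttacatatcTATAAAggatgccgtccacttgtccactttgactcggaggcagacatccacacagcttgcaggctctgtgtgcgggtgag
Ager: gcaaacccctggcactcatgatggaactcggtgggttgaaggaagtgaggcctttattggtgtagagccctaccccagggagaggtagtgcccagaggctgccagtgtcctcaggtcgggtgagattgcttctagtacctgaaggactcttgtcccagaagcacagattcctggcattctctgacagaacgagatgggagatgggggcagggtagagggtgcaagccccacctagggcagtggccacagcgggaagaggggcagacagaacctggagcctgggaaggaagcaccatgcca
Cldn18, upstream start: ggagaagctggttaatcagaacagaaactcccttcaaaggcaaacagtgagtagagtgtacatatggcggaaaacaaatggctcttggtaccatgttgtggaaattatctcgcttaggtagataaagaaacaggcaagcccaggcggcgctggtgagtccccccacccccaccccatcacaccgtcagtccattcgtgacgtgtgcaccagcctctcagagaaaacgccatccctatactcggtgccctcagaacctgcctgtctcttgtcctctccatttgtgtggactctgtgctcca
Cldn18, downstream start: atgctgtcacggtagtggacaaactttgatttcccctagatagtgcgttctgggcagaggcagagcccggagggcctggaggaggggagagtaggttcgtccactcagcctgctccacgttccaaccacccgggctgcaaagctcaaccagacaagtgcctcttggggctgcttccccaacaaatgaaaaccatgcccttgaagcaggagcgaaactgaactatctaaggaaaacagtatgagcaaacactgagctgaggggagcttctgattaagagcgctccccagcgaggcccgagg
The Sftpb promoter held CTCAAG 100 and 15 bases before the start. In the Sftpa1 promoter CTCAAG lay 166 bases and TATAAA 30 bases before the start, and no 2 matches overlapped. None of these letters was found in the 300 bases of Ager or in either Cldn18 window. The Ager window lies inside the gene, which is annotated from position 34597460, and bases before that position were not searched. CTCAAG occurred in 13.2% of the 1371 promoters of genes higher in lung than in each other organ, as defined below, in 14.6% of the 12257 promoters of all genes tested and in 15.9% of all 32851 promoters. TNTTTAC occurred in 7.8%, 8.88% and 12.4% of these promoters, CATTCC in 15.2%, 12.8% and 14.7%, and TATAAA in 8.1%, 8.86% and 13.6%, in the same order.

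Several arrays held signal of genes that were bright in another organ or are listed for another tissue. The 136 genes that were bright in testis and undetected in liver lay at a median of 1.16% and 0.6% of their testis level in vehicle lung arrays 1 and 2, and at 2.98% and 5.82% in vehicle spleen arrays 1 and 2. In the 6 treated lung arrays they lay at 0.0341% to 0.16%. The 125 genes that were bright in liver and undetected in testis lay at 0.561% and 2.68% of their liver level in vehicle lung arrays 1 and 2, and at 0.263% to 3.53% in treated lung arrays. The summed signal of 23 hepatocyte genes was 4125 and 27540.1 in vehicle lung arrays 1 and 2, against 224341 and 226269 in vehicle liver, and that of 24 cardiac muscle genes was 12158 and 4549, against 1316 to 1795 in the 6 other vehicle arrays. The source of these signals and their part in the results were not tested. Counts without single lung and spleen arrays are given beside the results. The 2 lung arrays correlated at Pearson r = 0.9824 over all probes, against 0.9802 to 0.9879 for the pairs of the other organs. Lung arrays correlated at 0.8492 to 0.873 with spleen, 0.7629 to 0.797 with liver and 0.6231 to 0.6512 with testis arrays. Because whole organs were measured, more cells of a type and more RNA per cell cannot be told apart.

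Surfactant, alveolar barrier and secretory genes were among those with the largest margins between lung and every other organ. Of 16593 genes on the array, 11851 were detected in both arrays of at least 1 vehicle organ and were tested. Of these, 406 were detected in both arrays of lung but of no other organ. A gene was counted as higher or lower in lung than each other organ when all 3 contrasts (lung minus testis, lung minus spleen, lung minus liver) passed an adjusted p of 0.05 in limma in the same direction. By this rule 1350 genes (11.4% of those tested) were higher in lung and 323 (2.73%) were lower, together 1673 genes (14.1%). Both lung arrays lay above all 6 others in 1962 genes (16.6%) and below them in 937 (7.91%). The margin of a gene is the smallest in size of its 3 log2 differences, on a scale of log2(signal + 16) that understates differences of dim genes. Against an organ that was not above background the margin is set by the lung signal, the added 16 and the floor. Genes were still picked by largest margin, so among such genes the pick follows lung signal. Among the 1350 higher genes the margin was 1.45 at the median, above 2 in 444 genes, above 3 in 207 and above 5 in 40, and 148 were not detected in any of the 6 arrays of the other organs. Leaving out lung array 1 gave 1183 higher and 247 lower genes, leaving out lung array 2 gave 1128 and 182, and leaving out spleen array 1 or 2 gave 1237 and 264 or 1245 and 277.

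**Figure D1:**
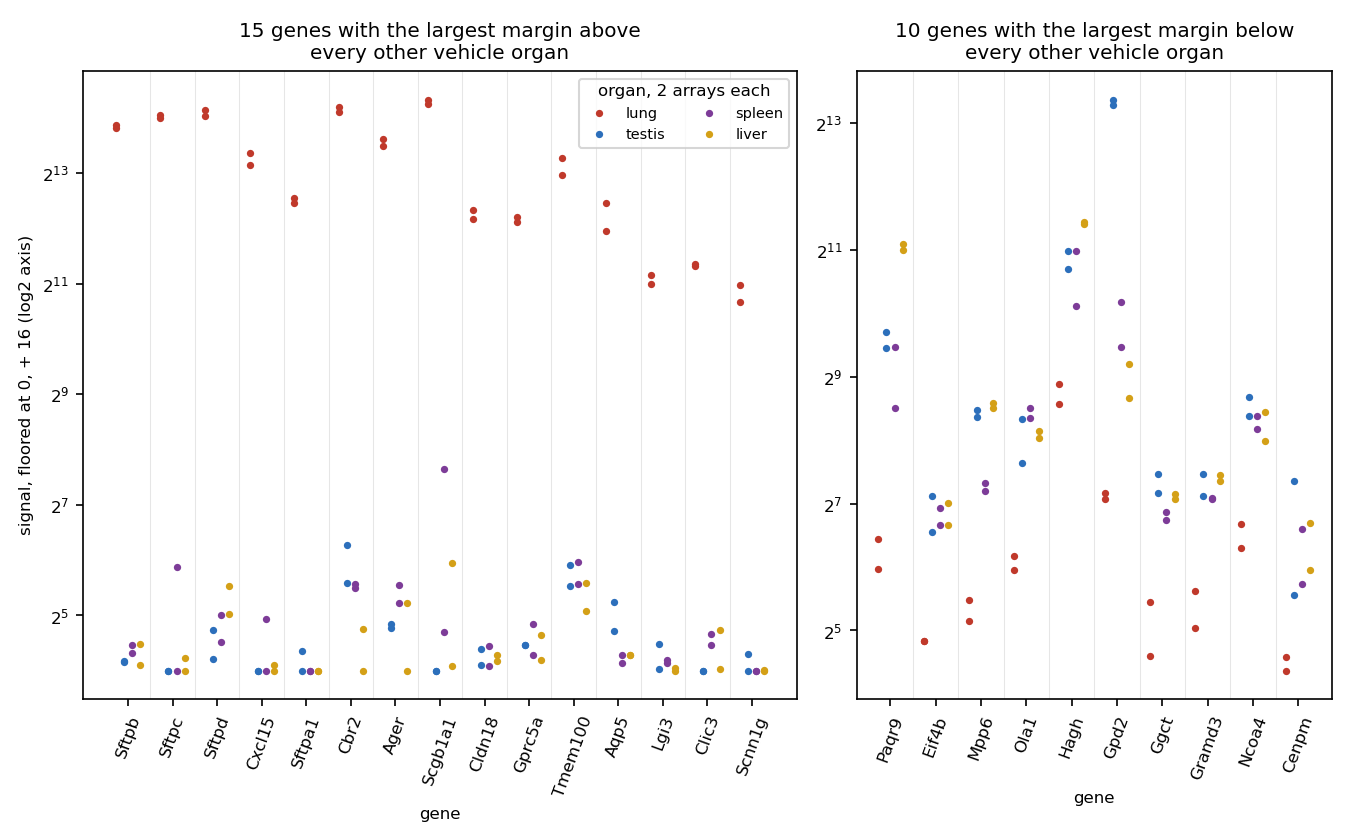
Signal (floored at 0, plus 16, on a log2 axis) of the 15 genes with the largest margin above and the 10 genes with the largest margin below every other vehicle organ, with 1 point per array and 2 arrays per organ. For the 15 genes on the left both lung points lie far above the 6 others, and for the 10 genes on the right both lie below them.

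4 surfactant proteins and a chemokine of lung epithelium were among the 15 genes with the largest margins. Sftpb, the hydrophobic surfactant protein needed for surface film formation, had signals of 14337 and 15072 in vehicle lung, against 1.8 and 2.1 in testis, 6.0 and 4.0 in spleen and 6.4 and 1.1 in liver. Both lung arrays were bright and no array of another organ rose above background, which made Sftpb at least 616-fold higher in lung than in each other organ (adjusted p = 1.33e-07 against spleen, the closest). Sftpc, which encodes the other hydrophobic surfactant protein and is made by type 2 cells, had 16952 and 16450.4 in vehicle lung, against -7.7 and -2.5 in testis, 42.8 and -9.9 in spleen and -3.1 and 2.8 in liver. Its lung signal stood 9.09 ± 0.50 above spleen on the log2 scale (adjusted p = 5.29e-06), and of the 6 other arrays only spleen array 1 was above background. For Sftpd, a collectin that binds microbial sugars in the airspace, signals were 16684 and 18157 in vehicle lung, against 10.8 and 2.5 in testis, 16.1 and 7.0 in spleen and 16.7 and 30.6 in liver. Lung exceeded liver, the closest organ, by log2 8.80 ± 0.27 (adjusted p = 4.5e-07), and the groups did not overlap. The second collectin, Sftpa1, had 5962 and 5630.3 in vehicle lung, against 4.6 and -2.6 in testis, -4.6 and -5.5 in spleen and -1.1 and -3.2 in liver, and was at least 243-fold higher in lung than in each other organ (adjusted p = 1.51e-07). Cxcl15, a neutrophil-attracting chemokine of lung epithelium also called lungkine, had 9018 and 10545 in lung, and of the 6 other arrays only spleen array 1 (14.8) was above background (log2 8.78 ± 0.29 over spleen, adjusted p = 7.36e-07).

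Of 25 type 2 genes listed, 24 were on the array and 23 were tested. Of the 23, 17 were higher in lung than in each other organ, against 11.4% of all genes tested. All 23 passed against the mean of the other organs, where 29.9% of genes tested were higher. Their median difference from that mean was log2 5.12, against -0.10 over all genes tested. Abca3, the transporter that loads surfactant lipid into lamellar bodies, had 4385 and 4139 in vehicle lung, against 74.7 and 47.9 in testis, 504 and 378 in spleen and 1708 and 1966 in liver. Lung was thus highest, and liver came closest (log2 1.21 ± 0.23, adjusted p = 0.00225). Napsa, the aspartic protease that processes pro-surfactant proteins, had 4669 and 4515 in vehicle lung, against 5.4 and 7.8 in testis, 2894 and 3630.4 in spleen and 14.9 and 16.0 in liver, and its margin over spleen was log2 0.50 ± 0.18 (adjusted p = 0.0494). The 6 members not called against every organ were Ctsh, Fabp5, the lysozymes Lyz1 and Lyz2, which myeloid cells also make, the lipid desaturase Scd1, and Hc, complement C5, which liver also makes. Hc had 1818 and 2474 in vehicle lung, against 0.0 and 3.0 in testis, -1.1 and 3.3 in spleen and 1615 and 1852 in liver. Hc was called against testis and spleen but not against liver (log2 0.29 ± 0.22, adjusted p = 0.284). Lgi3, a secreted leucine-rich repeat protein on the type 2 list, was at least 90.3-fold higher in lung than in each other organ, with 2025 and 2267 in lung (adjusted p = 2.49e-07).

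Type 1 cell genes were called in a larger share. Of 25 listed genes 23 were on the array. Of the 21 tested 20 were higher in lung than in each other organ, against 11.4% of all genes tested. The median difference of the 21 from the mean of the other organs was log2 4.75. Ager, the receptor for advanced glycation end products and an abundant protein of type 1 cells, had 11554 and 12626 in vehicle lung, against 12.9 and 11.5 in testis, 31.0 and 21.4 in spleen and 21.6 and -1.3 in liver. Both lung values lay far above the others, which did not exceed 31.0, a margin of log2 8.17 ± 0.36 over spleen (adjusted p = 1.93e-06). Cldn18, a claudin of alveolar tight junctions, had 4572 and 5166 in lung and was below background in all 6 other arrays. It was at least 204-fold higher in lung than in each other organ (adjusted p = 3.37e-07). Gprc5a, an orphan G protein-coupled receptor abundant in lung epithelium, had 4427 and 4723 in lung, against 6.1 and 6.0 in testis, 12.9 and 3.5 in spleen and 2.2 and 9.0 in liver. Aqp5, the apical water channel of type 1 cells, had 3968 and 5643 in vehicle lung, against 22.1 and 10.4 in testis, 1.7 and 3.4 in spleen and 3.4 and 3.4 in liver, and lay closest to testis (log2 7.23 ± 0.24, adjusted p = 2.85e-07). Hopx, a homeodomain protein of type 1 cells, was dim on this array, with 17.7 and 21.2 in lung and no detected array elsewhere, and was at least 1.48-fold higher in lung (adjusted p = 0.00285). The 1 member not called, Gramd2, had 20.7 and 24.7 in vehicle lung, against 85.7 and 68.8 in testis, -1.7 and -0.6 in spleen and 7.7 and 6.9 in liver. It was lower in lung than in testis (log2 -1.26 ± 0.17, adjusted p = 0.000206), and 2 listed genes, Rtkn2 and Sema3e, were not tested.

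Of 18 tested genes for water and ion transport, 16 were higher in lung than in each other organ, against 11.4% of all genes tested, with a median difference of log2 3.91 from their mean. The epithelial sodium channel, which clears liquid from the airspace, was measured by its 3 subunits. Scnn1g had 1624 and 2006 in vehicle lung, against 3.8 and -4.1 in testis, -2.0 and -4.2 in spleen and 0.1 and -1.3 in liver, and was at least 76.2-fold higher in lung (adjusted p = 2.49e-07). Scnn1b had 1390.1 and 1302 in lung and was at least 57-fold higher than in each other organ (adjusted p = 4.1e-07), and Scnn1a had 1482 and 1544 in vehicle lung, against -3.2 and -5.0 in testis, 14.9 and 4.4 in spleen and 143 and 140.1 in liver, a margin of log2 3.28 ± 0.22 over liver. Both lung arrays lay above all others for all 3 subunits. Clic3, an intracellular chloride channel family protein, had 2543 and 2611 in lung, against -5.8 and -2.7 in testis, 9.5 and 6.2 in spleen and 10.6 and 0.4 in liver. Aqp1, the water channel of red cells and endothelium, had 13574 and 15201 in vehicle lung, against 9.6 and 6.3 in testis, 8308 and 4746 in spleen and 1896 and 1735 in liver. Spleen came closest, with a margin of log2 1.19 ± 0.26 (adjusted p = 0.00634). Cftr, the chloride channel mutated in cystic fibrosis, had 233 and 286 in lung and a smaller margin of log2 0.61 ± 0.23 over testis (adjusted p = 0.0415).

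Of 17 tested club and secretory genes, 11 were higher in lung than in each other organ, against 11.4% of all genes tested. Lower in lung than in liver were 3 of the 17, against 25.1% of all genes tested. Lower than the mean of the other organs was 1, against 32.2%. Scgb1a1, the secretoglobin that defines club cells, had 19442 and 20542 in vehicle lung, against -4.5 and -1.2 in testis, 186 and 9.9 in spleen and 1.0 and 45.7 in liver. Lung was far above every other array, yet both spleen arrays and liver array 2 were themselves above background, and the margin over spleen was log2 8.11 ± 0.89 (adjusted p = 0.00016). Cbr2, the carbonyl reductase of club and type 2 cells, had 17562 and 18835 in lung, against 32.2 and 61.0 in testis, 29.4 and 31.4 in spleen and -1.2 and 11.1 in liver (log2 8.22 ± 0.30 over testis, adjusted p = 3.32e-07). The other 4 of 21 list members on the array were not tested. Cyp2f2, the cytochrome P450 of club cells, had 15368 and 14953 in vehicle lung, against 49.5 and 31.4 in testis, 34.1 and 8.3 in spleen and 8584 and 8109 in liver, and its difference from liver missed the threshold (log2 0.86 ± 0.33, adjusted p = 0.0515).

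In 6 of the 17 club and secretory genes the signal of lung array 1 was more than 1 log2 unit above that of lung array 2, and in none was it as far below, with a median difference of 0.29. Scgb3a1, a secretoglobin of the upper airway, had 1867 and 137 in vehicle lung, against -2.3 and 1.0 in testis, -4.1 and -5.2 in spleen and -2.9 and -0.7 in liver, and it was at least 22.5-fold higher in lung (adjusted p = 0.00117). The bound was 78.8 from lung array 1 alone and 6.4 from array 2 alone. Tff2, a trefoil peptide of mucous cells, had 702 and 56.6 in lung. Bpifa1 and Reg3g, secreted airway defence proteins, had 1098 and 3.5 and 116 and 6.9 in the same arrays and were not tested because they were not detected in both. Lypd2 had 2464 and 756 in lung and was at least 57.9-fold higher than in each other organ (adjusted p = 1.61e-05), with bounds of 104 from array 1 alone and 32.3 from array 2 alone. Tff2, Bpifa1 and Reg3g were chosen after their values were seen. Over all 10327 tested genes detected in a lung array the median of array 1 minus array 2 was 0.0, with 220 genes above 1 and 197 below -1.

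Of 16 tested genes of multiciliated cells, 3 were higher in lung than in each other organ (18.8%, against 11.4% of all genes tested), and 12 were lower than in testis, whose sperm tails share the axoneme. In the contrast with testis 31.7% of genes tested were lower, and in that with liver, where 31.4% of genes tested were higher, 12 members were higher. The median difference from the mean of the other organs was log2 -0.36, and 0.13 without lung array 2. The spleen and lung arrays held the signal of testis-bright genes given above, and its part in the multiciliated values was not tested. Sec14l3, a lipid-binding protein of ciliated airway cells, had 1501 and 1969 in vehicle lung, against 9.6 and 9.5 in testis, 1.9 and -5.7 in spleen and -6.0 and 6.2 in liver and exceeded testis by log2 6.09 ± 0.22 (adjusted p = 3.32e-07). Tppp3, a tubulin-binding protein, had 1494 and 1475 in lung, against 25.7 and 38.2 in testis, 16.4 and 39.9 in spleen and 1.5 and 1.1 in liver (log2 4.98 ± 0.27 over testis, adjusted p = 1e-06). Cdhr3, a cadherin family receptor of ciliated cells, had 740.1 and 386 and a margin of log2 4.57 ± 0.28 over liver. Rsph1, a radial spoke protein shared by cilia and sperm tails, showed the opposite order with 1159.8 and 429.6 in vehicle lung, against 20542 and 15526 in testis, 647 and 1187 in spleen and 47.6 and 59.7 in liver. The difference from testis was log2 -4.63 ± 0.45 (adjusted p = 2.63e-05), and lung array 1 was well above lung array 2. Foxj1, the master regulator of motile cilia, was dim on its probe in every organ, with 17.2 and 20.7 in lung, against 31.6 and 34.6 in testis, 18.1 and 9.6 in spleen and 41.3 and 37.9 in liver.

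Endothelial genes had the highest called share of the 38 lists. Of 34 tested endothelial genes 33 were higher in lung than in each other organ, against 11.4% of all genes tested. All 34 passed against the mean, where 29.9% of genes tested were higher, with a median difference of log2 4.17. The other 4 of 38 on the array were not tested. Tmem100, an endothelial transmembrane protein downstream of BMP signalling, had 7975 and 9844 in vehicle lung, against 30.4 and 44.6 in testis, 31.2 and 46.3 in spleen and 17.7 and 32.3 in liver, a margin of log2 7.35 ± 0.26 over spleen (adjusted p = 8.46e-07). Car4, the carbonic anhydrase on the surface of a class of alveolar capillary cells, had 1534 and 1674 in vehicle lung, against 25.5 and 30.0 in testis, 1.7 and 4.8 in spleen and -3.3 and 1.7 in liver. Lung was the only organ with a signal above 100, and testis came closest (log2 5.21 ± 0.18, adjusted p = 2.87e-07). Cdh5, the cadherin that joins endothelial cells, had 1204 and 1420.0 in vehicle lung, against 9.5 and -1.8 in testis, 31.1 and 48.9 in spleen and 54.1 and 53.7 in liver. Pecam1, a general endothelial adhesion molecule, had 2622 and 2966 in lung, against 8.2 and 19.0 in testis, 309 and 411 in spleen and 102 and 97.4 in liver. Lung exceeded its closest organ in both genes, by log2 4.24 ± 0.26 over liver for Cdh5 (adjusted p = 4.11e-06) and 2.91 ± 0.23 over spleen for Pecam1 (adjusted p = 3.06e-05). Thbd, the thrombin receptor that activates protein C, had 2660.1 and 2941 in vehicle lung, against 11.2 and 5.4 in testis, 138 and 149.7 in spleen and 7.0 and 14.3 in liver (log2 4.14 ± 0.21 over spleen, adjusted p = 3.6e-06). Vwf, the clotting factor carrier of larger vessels and platelets, was closer to spleen, with 4105 and 4235 in vehicle lung, against 168 and 111 in testis, 1727 and 1810.3 in spleen and 152 and 155 in liver (log2 1.23 ± 0.21, adjusted p = 0.00159). The exception was Kdr, a VEGF receptor, whose probe was dim in every organ. It had 22.5 and 29.5 in vehicle lung, against 5.2 and 6.8 in testis, 2.3 and 5.5 in spleen and 14.8 and 15.5 in liver, and missed the threshold against liver (log2 0.43 ± 0.18, adjusted p = 0.0721).

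Of 24 tested genes of vascular tone and signalling, 13 were higher in lung than in each other organ, against 11.4% of all genes tested. Ramp2, the co-receptor for adrenomedullin, had 10376 and 10468 in vehicle lung, against 77.7 and 80.0 in testis, 658 and 796 in spleen and 427 and 502 in liver, a margin of log2 3.82 ± 0.18 over spleen (adjusted p = 2.47e-06). Edn1, the vasoconstrictor endothelin, had 1094 and 746 in lung, against 21.3 and 21.9 in testis, 29.1 and 36.8 in spleen and 42.1 and 22.9 in liver (log2 4.24 ± 0.26, adjusted p = 8.39e-06). Its receptor Ednrb was also higher, with 3397 and 4129 in lung and a margin of log2 2.86 ± 0.25 over liver. Ptgis, which makes prostacyclin, had 2113 and 1806 (log2 3.05 ± 0.23 over testis, adjusted p = 5.22e-06), and Npr3, the natriuretic peptide clearance receptor, had 350.5 and 446 (log2 3.62 ± 0.40, adjusted p = 0.000183). Ace, the angiotensin-converting enzyme, was dim in lung on its probe, at 35.7 and 75.9, against 113 and 186 in testis, -5.0 and 11.4 in spleen and -8.2 and -3.9 in liver, and was lower in lung than in testis (log2 -1.23 ± 0.36, adjusted p = 0.0143). Testis is known to make a form of its own.

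Of 16 tested elastic fibre genes 10 were higher in lung than in each other organ, of 17 basement membrane genes 13, and of 14 collagen genes 7, against 11.4% of all genes tested. The collagen count was 5 with the floor at 16, and 2 collagens, Col14a1 and Col26a1, were lower in lung than the mean of the other organs. Eln, which encodes elastin, had 1283 and 1045 in vehicle lung, against 16.3 and 46.8 in testis, 157 and 169 in spleen and 30.6 and 52.8 in liver (log2 2.72 ± 0.33 over spleen, adjusted p = 0.000271). Mfap4, a microfibril protein, had 3652 and 2874 in lung, against 43.3 and 43.1 in testis, 56.6 and 116 in spleen and 16.4 and 6.2 in liver (log2 5.06 ± 0.31, adjusted p = 8.54e-06), and Mfap2 had 772 and 872 (log2 5.13 ± 0.28 over testis, adjusted p = 1.19e-06). Lung was highest for all 3 genes. Col4a1 and Col4a2, the chains of the common basement membrane collagen, were highest in lung as well. Col4a1 had 8688 and 10376 in vehicle lung, against 285 and 228 in testis, 1399.5 and 1980.3 in spleen and 364 and 299 in liver, and Col4a2 had 5630.3 and 6118 in lung, with margins over spleen of log2 2.50 ± 0.23 and 2.60 ± 0.18. Agrn, a proteoglycan of basement membranes, had 6360.1 and 8172 in vehicle lung, against 124 and 70.3 in testis, 767 and 729.9 in spleen and 1039.6 and 936 in liver (log2 2.85 ± 0.25 over liver, adjusted p = 2.97e-05). Among fibrillar collagens Col1a1 had 684 and 655 in vehicle lung, against 28.4 and 122 in testis, 178 and 225 in spleen and 29.7 and 34.9 in liver, and its margin over spleen was log2 1.66 ± 0.44 (adjusted p = 0.015).

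Mesenchymal lists were mixed. Of 22 tested fibroblast genes 12 were higher in lung than in each other organ, against 11.4% of all genes tested. So were 7 of 16 smooth muscle and pericyte genes and 5 of 9 mesothelial genes. For 2 of these 5, Gpm6a and Upk1b, the second brightest probe gave the opposite direction against the mean of the other organs (log2 -0.07 and -0.05). Mgp, the matrix protein that inhibits calcification, had 11080.0 and 9481 in vehicle lung, against 203 and 273 in testis, 683 and 902 in spleen and 161 and 199 in liver (log2 3.68 ± 0.23 over spleen, adjusted p = 9.12e-06). Fgf10, a growth factor of lung mesenchyme, had 197 and 201 in lung and was below background in all 6 other arrays, at least 8.99-fold higher in lung than in each other organ (adjusted p = 2.59e-06). Higd1b, a pericyte gene, had 639 and 672 in lung and was at least 28.1-fold higher than in each other organ (adjusted p = 9.82e-07). Pdgfrb, the pericyte receptor for platelet-derived growth factor B, had a smaller margin of log2 1.96 ± 0.38 over spleen (adjusted p = 0.00347). Msln, the mesothelial surface protein, had 179 and 106 in lung, against 1.9 and 2.5 in testis, 20.4 and 16.7 in spleen and -0.1 and -3.8 in liver. Of the 22 fibroblast genes 4 were lower in lung than in liver, against 25.1% of all genes tested, and 1 was lower than the mean, against 32.2%. Dcn and Lum, proteoglycans of fibroblasts in many organs, were not called against every organ. Dcn had 4324 and 2868 in vehicle lung, against 949 and 1798 in testis, 2274 and 4089 in spleen and 3326 and 2937 in liver, and Lum had 111 and 45.4 in vehicle lung, against 67.8 and 103 in testis, 23.4 and 62.0 in spleen and 234 and 142 in liver.

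Regulators of lung identity were among the called genes. Of 44 tested transcription factors on the lung list 29 were higher than in each other organ, against 11.4% of all genes tested. The other 15 did not pass in all 3 contrasts. Of the 44, 6 were lower in lung than in testis, against 31.7% of all genes tested, and 3 were lower than in liver, against 25.1%. Lower than the mean of the other organs was 1, against 32.2%. Nkx2-1 itself had 711 and 802 in vehicle lung, against 6.7 and 2.2 in testis, 4.9 and -2.5 in spleen and 4.9 and 5.7 in liver, with no array of another organ above background, and was at least 32.3-fold higher in lung than in each other organ (adjusted p = 8.34e-07). Irx3 had 1041 and 1112 in lung, against 14.6 and 9.3 in testis, 6.0 and -0.4 in spleen and 5.7 and 5.8 in liver (log2 5.29 ± 0.21 over testis, adjusted p = 3.89e-07). Foxf1 and Tbx2, regulators of lung mesenchyme, had 488 and 718 and 609.6 and 544 in lung, with margins of log2 4.40 ± 0.37 over liver and 4.47 ± 0.17 over testis. Gata6, shared with other endoderm organs, had 787 and 963 in vehicle lung, against 299 and 366 in testis, 95.0 and 110.3 in spleen and 212 and 223 in liver, a margin of log2 1.35 ± 0.19 over testis (adjusted p = 0.000246). Foxa2, also a liver factor, had 102 and 99.3 in lung, against 76.6 and 73.7 in liver, and was not called against liver (log2 0.35 ± 0.16, adjusted p = 0.0851). Of 30 tested genes of Wnt, BMP and FGF signalling 17 were higher in lung than in each other organ, led by Bmp4 with 1975 and 1579 in vehicle lung, against 17.2 and 14.6 in testis, 72.5 and 67.1 in spleen and 92.8 and 137 in liver (log2 3.79 ± 0.22 over liver, adjusted p = 2.88e-06).

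**Figure D2:**
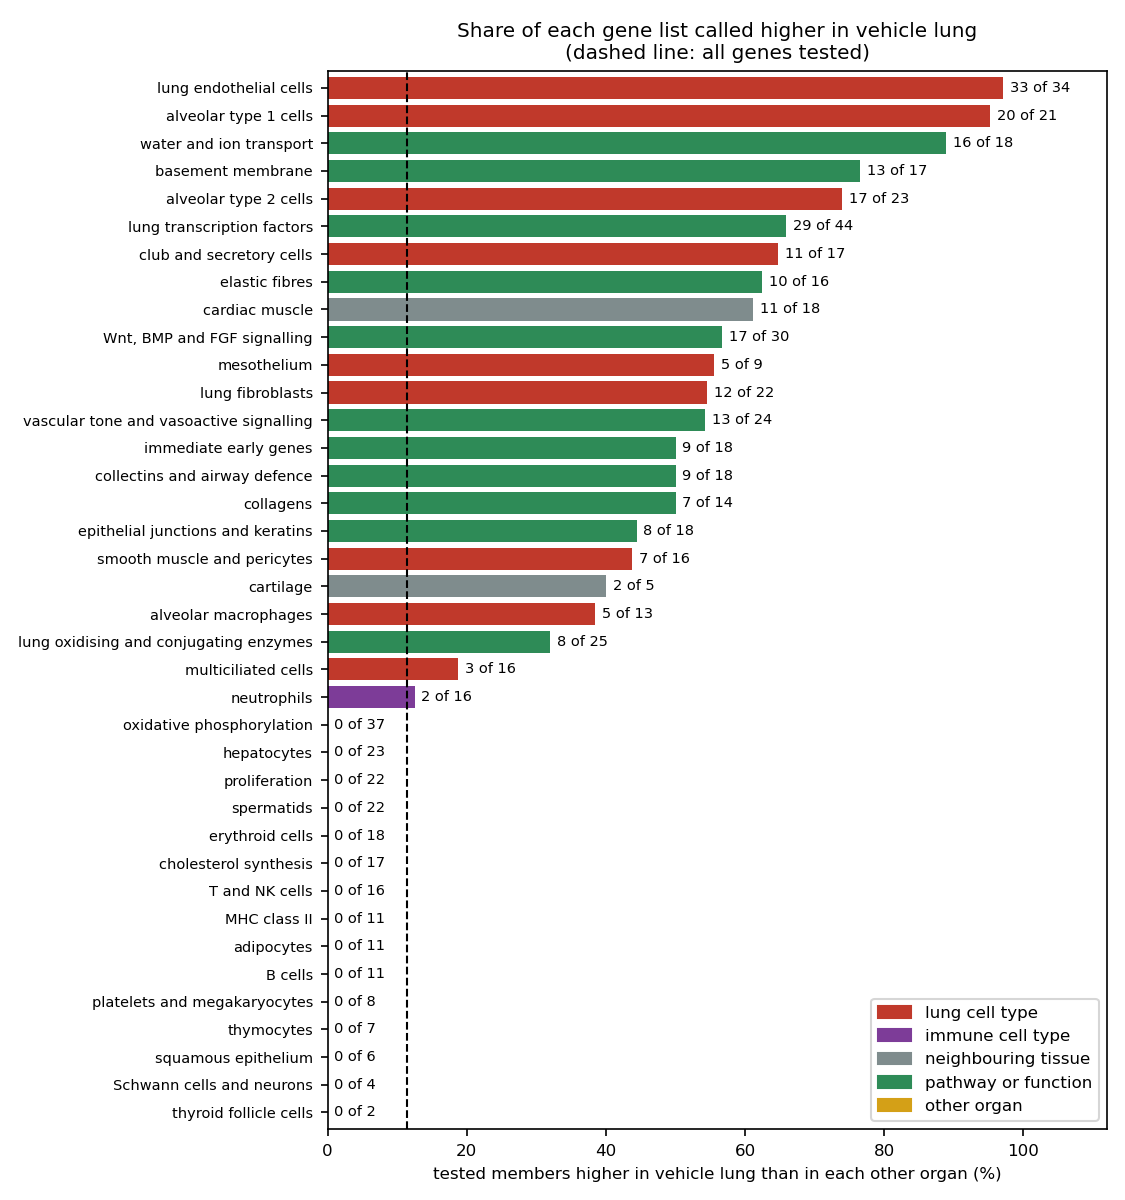
Share of the tested members of each gene list that were higher in vehicle lung than in each other organ, in percent, with counts beside the bars and a dashed line at the 11.4% of all genes tested. Endothelial, type 1 and transport lists have the longest bars, and most immune and neighbouring-tissue lists have none.

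Immune lists differed in the share higher in lung than in each other organ. Of 13 tested alveolar macrophage genes 5 were higher (38.5%, against 11.4% of all genes tested), and these included Krt19 and Krt79, which encode keratins. The defining receptors were at or near background, with Marco at 14.7 and -0.6 and Siglecf at -8.1 and -8.3 in lung, and Siglecf and Itgax were not tested because no organ had them detected in both arrays. Chil3, the lectin of alveolar macrophages, had 578 and 684 in vehicle lung, against 12.1 and 8.1 in testis, 1439 and 1136 in spleen and -6.6 and 6.5 in liver, and Mrc1, the mannose receptor, had 466 and 476 in vehicle lung, against 257 and 274 in testis, 1397 and 1659 in spleen and 625 and 555 in liver. Both were lower in lung than in spleen, with an adjusted p of 0.00735 for Chil3 and a log2 difference of -1.66 ± 0.17 for Mrc1 (adjusted p = 0.000124). Of 16 neutrophil genes 2 were higher in lung than in each other organ (12.5%, near the 11.4% of all genes tested) and 13 were lower than in spleen, where 25.2% of genes tested were lower. The 2 were Hdc, histidine decarboxylase, and Chil1, which is also on the type 2 list. S100a8, an abundant neutrophil protein, had 2477 and 887 in vehicle lung, against -1.3 and -4.3 in testis, 16684 and 15072 in spleen and 249 and 238 in liver, higher in lung than in testis and liver and lower than in spleen. No tested gene of the lists for T and NK cells (16 tested), B cells (11), platelets (8), erythroid cells (18) or MHC class II (11) was higher in lung than in all 3 organs in limma, and none was at an unadjusted p under 0.05 in all 3 contrasts. Lower in lung than in spleen were 14, 11, 8, 15 and 9 genes of these 5 lists in the same order. Cd74, the MHC class II chaperone, had 8385 and 6563 in vehicle lung, against 74.6 and 59.4 in testis, 13858 and 15662 in spleen and 886 and 864 in liver, between spleen and liver.

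Heart muscle genes were the neighbouring-tissue markers most often called. Of 18 tested cardiac muscle genes 11 were higher in lung than in each other organ (median difference log2 2.98), against 11.4% of all genes tested. Also 11 of the 18 were over 1 log2 unit higher in lung array 1 than in array 2. Among all tested genes detected in a lung array this held for 220 of 10327. Sln, a calcium pump regulator of atrial and skeletal muscle, had 1555 and 253 in vehicle lung, against 3.5 and 13.6 in testis, 13.5 and 28.6 in spleen and -2.8 and -7.4 in liver. Myl7, the atrial myosin light chain, had 673 and 143 in lung and was at least 13.8-fold higher than in each other organ (adjusted p = 0.000482), with bounds of 28.8 from array 1 alone and 6.64 from array 2 alone. Ankrd1 differed less between the lung arrays, at 707 and 540.0 (at least 26.5-fold, adjusted p = 5.54e-06). The count was 10 without lung array 1 and 14 without lung array 2. A further 6 genes (Myl2, Nppa, Nppb, Pln, Ryr2 and Trdn) were not detected in both arrays of any organ and were not tested. Nppa, the atrial natriuretic peptide, was 205 and 3.2 in the 2 lung arrays. Cardiac muscle is known to sheathe the pulmonary veins of mice, and the part of heart tissue in these values was not tested. Of 5 tested cartilage genes 2 were higher, Chad (552 and 266 in lung), which is also on the club and secretory list, and Cytl1 (197 and 130.0 in lung). The other 3, Col2a1, Col9a1 and Comp, were lower in lung than in testis and than the mean, and the list median was log2 -0.63. None of the tested genes for squamous epithelium (6), adipocytes (11), thymocytes (7), Schwann cells and neurons (4) or thyroid follicles (2) was higher than in every organ, and none was at an unadjusted p under 0.05 in all 3 contrasts. Adipoq, the adipocyte hormone, was 601 and 23.9 in the 2 lung arrays, and 8 of the 11 adipocyte genes were over 1 log2 unit higher in array 1.

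**Figure D3:**
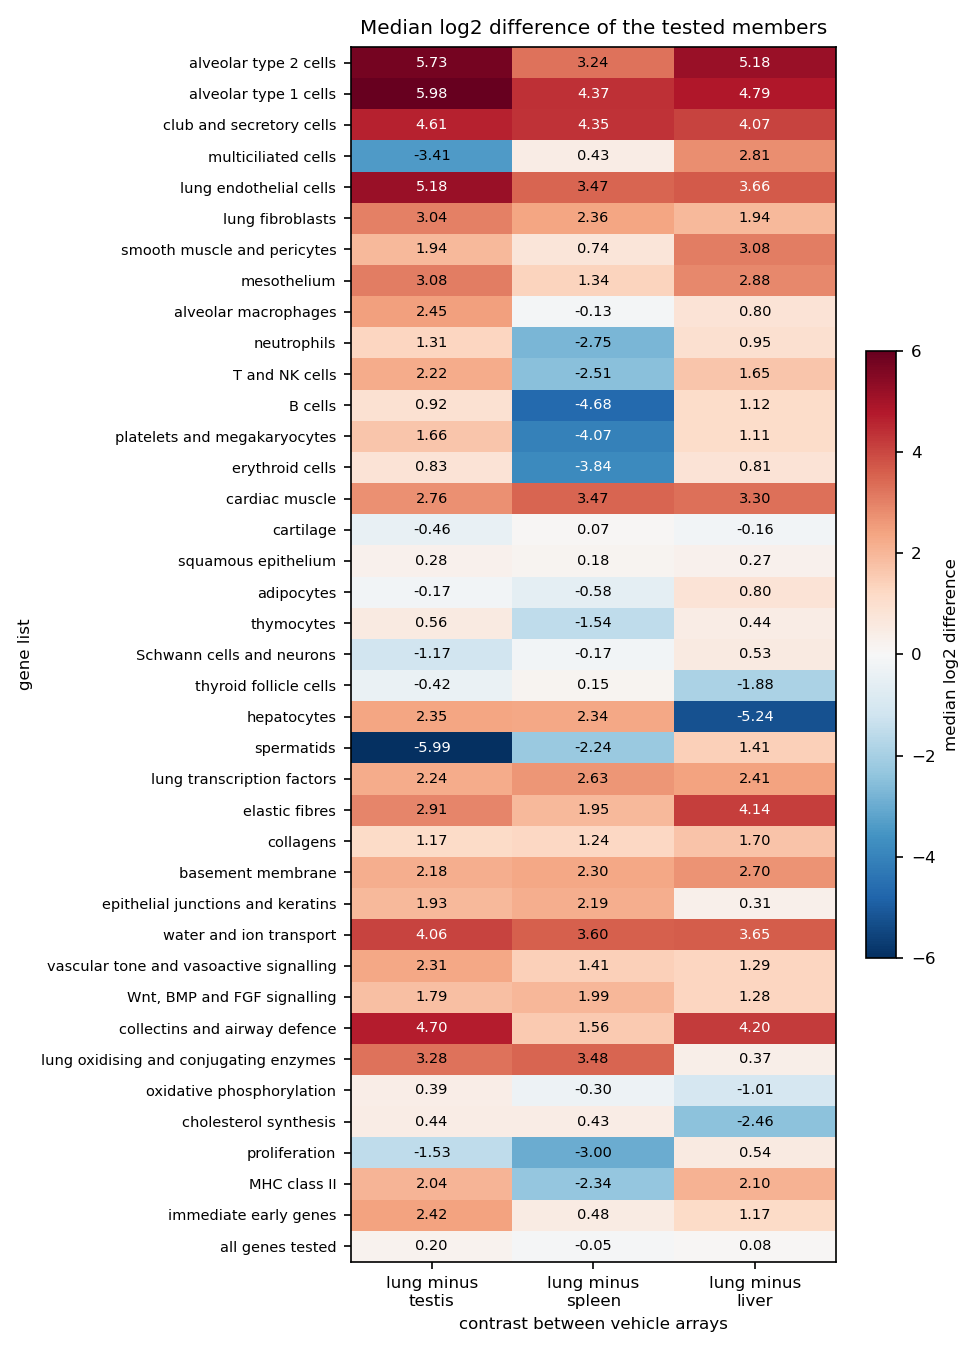
Median log2 difference of the tested members of each gene list in the contrasts of vehicle lung minus testis, spleen and liver, with the values printed. Alveolar type 1 and type 2, club, endothelial, elastic fibre and basement membrane lists are positive against all 3 organs, blood and immune lists are negative against spleen, hepatocyte genes are negative against liver and spermatid and multiciliated genes against testis.

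Of 18 tested airway defence genes 9 were higher in lung than in each other organ, against 11.4% of all genes tested, including Chia1, an acidic chitinase, with 2271 and 2581 in vehicle lung, against 10.9 and 10.8 in testis, 2.6 and 1.9 in spleen and -2.5 and -5.7 in liver (adjusted p = 2.13e-07 against testis, the closest). Wfdc2, a secreted protease inhibitor family protein, had 19214 and 17135 in lung and a margin of log2 6.37 ± 0.40 over liver. Of 25 oxidising and conjugating enzymes 8 passed in all 3 contrasts, and 9 were lower in lung than in liver, where 25.1% of genes tested were lower. Cyp2s1 had 1124 and 976 in lung, against 14.0 and 27.7 in testis, 48.4 and 24.3 in spleen and 14.0 and 0.7 in liver (log2 4.38 ± 0.34 over spleen, adjusted p = 2.85e-05). Cyp4b1, a fatty acid hydroxylase of lung, had 2157 and 2322 in lung and a margin of log2 4.37 ± 0.28 over spleen (adjusted p = 1.07e-05). Of 18 immediate early genes 9 were higher in lung than in each other organ. Ier3 had 4403 and 3968 in vehicle lung, against 26.1 and 19.2 in testis, 138 and 91.3 in spleen and 30.7 and 30.8 in liver. Jun had 798 and 834 in vehicle lung, against 8.1 and 8.6 in testis, 40.7 and 45.0 in spleen and 69.7 and 69.3 in liver. Fos, which pairs with Jun in the AP-1 factor, had 165 and 197 in lung, against 3.2 and 2.4 in testis, 25.5 and 40.0 in spleen and 32.7 and 9.0 in liver. Both lung arrays lay above the 6 others for all 3, with margins of log2 5.03 ± 0.22, 3.28 ± 0.16 and 2.03 ± 0.31.

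Genes lower in lung than in every other organ were fewer and closer to the other organs. The margin of the 323 lower genes was -0.81 at the median, was below -1 in 91 and below -2 in 1. That gene was Paqr9, a membrane receptor family protein, with 46.6 and 70.7 in vehicle lung, against 818 and 682 in testis, 697 and 347 in spleen and 2180.4 and 2037 in liver (log2 -2.79 ± 0.32 from spleen, adjusted p = 0.000202). Gpd2, the mitochondrial glycerol-3-phosphate dehydrogenase, had 128 and 118 in vehicle lung, against 10002 and 10545 in testis, 693 and 1140.4 in spleen and 388 and 570.5 in liver and lay closest to liver (log2 -1.81 ± 0.27, adjusted p = 0.000611). Hagh, a glyoxalase that hydrolyses lactoylglutathione, had 363 and 455 in vehicle lung, against 1651 and 2006 in testis, 2013 and 1095 in spleen and 2758 and 2715 in liver (log2 -1.83 ± 0.29 from spleen, adjusted p = 0.00111), and Ncoa4, the receptor for ferritin breakdown, had 62.5 and 86.0 in vehicle lung, against 318 and 397 in testis, 318 and 273 in spleen and 334 and 236 in liver (log2 -1.73 ± 0.23 from liver, adjusted p = 0.000345). In all 4 genes both lung arrays lay below the 6 others. The other 6 of the 10 largest margins were Eif4b, a translation initiation factor, with 12.4 and 12.4 in lung, Mpp6 with 19.5 and 28.8, Ola1 with 56.6 and 45.9, Ggct with 27.5 and 8.2, Gramd3 with 33.4 and 16.8 and the centromere protein Cenpm with 4.6 and 7.9, all with margins between -1.97 and -1.70.

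Of 37 tested genes of oxidative phosphorylation, none was higher in limma than in each other organ, also at an unadjusted p under 0.05. Lower than in each other organ were 3 (Atp5o, Cox5a and Cox5b), against 2.73% of all genes tested, and 27 were lower than in liver, against 25.1%. The 3 became 7 under cyclic loess, 8 with centring on genes detected in all 8 arrays and 1 without lung array 2. The median difference was log2 -1.01 from liver, -0.30 from spleen and 0.39 from testis. Atp5o, a subunit of ATP synthase, had 52.2 and 61.2 in vehicle lung, against 252 and 439 in testis, 137 and 107 in spleen and 146 and 129.9 in liver (log2 -0.92 ± 0.26 from spleen, adjusted p = 0.0211). Of 17 cholesterol synthesis genes 16 were lower than in liver, against 25.1% of all genes tested, and Cyp51, the lanosterol demethylase, had 53.8 and 61.0 in vehicle lung, against 799.8 and 1032 in testis, 77.4 and 127 in spleen and 1090.1 and 916 in liver. Of 22 proliferation genes 21 were lower than in spleen, against 25.2% of all genes tested, and 13 lower than in testis, against 31.7%. Birc5, a regulator of chromosome segregation, had 90.7 and 43.6 in vehicle lung, against 897 and 951 in testis, 2689 and 1107 in spleen and 31.3 and 56.6 in liver, and its difference from liver did not pass (log2 0.44 ± 0.44, adjusted p = 0.422). Spermatid genes were lower in lung than in testis in 22 of 22 and hepatocyte genes lower than in liver in 22 of 23, while 16 of the 23 hepatocyte genes were higher in lung than in testis, against 39.5% of all genes tested, and 16 higher than in spleen, against 22.9%. The median difference of the hepatocyte list from the mean of the other organs was log2 -0.52, against 0.8 without lung array 1 and -1.29 without lung array 2. Ttr, the liver's thyroxine carrier, had 662 and 4427 in vehicle lung, against 9.8 and -1.6 in testis, 106 and 7.2 in spleen and 15662 and 16170.4 in liver, and Alb, albumin, 2.9 and 66.6 in lung, against 1796 and 1677 in liver.

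Against the mean of the 3 other organs, 3538 genes were higher (29.9%) and 3816 lower (32.2%) in lung, together 7354 (62.1%), and 7820 had an unadjusted p under 0.05. With each array centred on the genes detected in all 8 arrays, which moved the median of all genes from -0.10 to -0.29, 2936 were higher and 4844 lower, so that 37.7% of called genes were higher, against 48.1%. When the 6 other arrays were treated as 1 group, so that differences between organs entered the error, 617 were higher and 24 lower. Against single organs, 4679 genes (39.5%) were higher than in testis, 2718 (22.9%) than in spleen and 3717 (31.4%) than in liver. Called in either direction were 71.2% against testis, 48.2% against spleen and 56.5% against liver. Among the 1350 genes higher than in every organ, the closest organ was spleen for 658, liver for 431 and testis for 261.

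Other genes set the lung apart from 2 organs only. Higher in lung than in 2 organs and not called against the third were 682 genes for spleen, 405 for liver and 166 for testis. With 2 arrays per organ, a gene that was not called may still differ, and equal expression was not tested. The genes below are those with the smallest difference from the third organ. Zyx, a focal adhesion protein, had 7468 and 6789 in vehicle lung, against 1264 and 828 in testis, 7076 and 7166 in spleen and 1195 and 963 in liver, with lung and spleen at one level and testis and liver at another. Tle4, a transcriptional co-repressor, had 1010.2 and 1228 in lung and 1094 and 1133 in spleen, against 215 and 185 in testis and 248 and 298 in liver. With liver, lung shared Ext1, an enzyme of heparan sulfate synthesis, at 753 and 861 in lung and 809.8 and 799 in liver, against 131 and 128 in testis and 274 and 311 in spleen, and Phldb1 at 221 and 276 in lung and 220.5 and 276 in liver. With testis it shared Pfkfb4, a regulator of glycolysis, at 670.4 and 651 in lung and 704 and 624 in testis, against 176 and 229 in spleen and 25.7 and 29.4 in liver. The second brightest Pfkfb4 probe gave the opposite direction against the mean of the other organs, log2 -1.02.

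The treated arrays, which none of these contrasts used, gave the same measure in other samples. In the 24 arrays at 30, 60 and 90 mg/kg, 1624 genes (13.7%) were higher and 731 (6.17%) lower in lung than in each other organ, and against the mean of the other organs 35.1% were higher and 41.2% lower. Of the 1350 genes higher in vehicle lung 1233 were among those 1624, and all 1350 had a positive lung-minus-mean difference, 1344 of them called. Of the 323 lower genes 266 were among the 731. Sftpb ranged over 12717 to 15983 in the 6 treated lung arrays, Sftpc over 16170.4 to 20225, Scgb1a1 over 17135 to 22636, Ager over 6736 to 12219 and Nkx2-1 over 604 to 988. The genes that differed within the vehicle pair also ranged widely here, Scgb3a1 over 57.3 to 3426 and Sln over 71.6 to 1078.

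**Figure D4:**
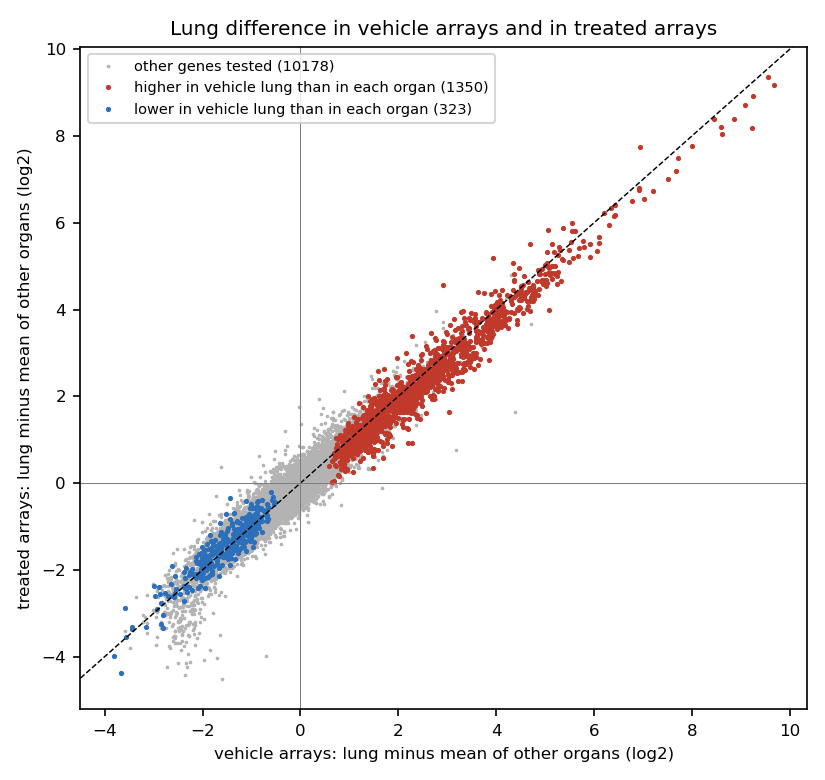
Lung minus the mean of testis, spleen and liver on the log2 scale in treated arrays against the same difference in vehicle arrays, 1 point per gene tested, with genes called in all 3 vehicle contrasts in colour and the line of equality dashed. All 1350 genes higher in vehicle lung lie above 0 on both axes, and all 323 lower genes lie below 0.

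A test of the difference itself found few genes whose lung difference changed with dose. The lung-minus-mean difference at a dose minus that in vehicle passed for 0 genes at 30 mg/kg (580 at an unadjusted p under 0.05), for 0 at 60 mg/kg (908) and for 12 at 90 mg/kg (1148), 5 upward (0.0422% of genes tested) and 7 downward (0.0591%), in limma. With an offset of 50 in place of 16 the count over the doses was 88. Of the 1350 higher genes 7 were among the 12, out of 11851 genes tested. The 1350 were picked for high signal in the same vehicle lung arrays that form the baseline here. That choice favours a fall, so no conclusion is drawn from the overlap. Meis1, a homeodomain factor, had 377.5 and 442.1 in lung at 90 mg/kg, against 916.2 and 1035 in vehicle lung. Slc6a2, the noradrenaline transporter, known in lung endothelium for clearing the transmitter, had 443.4 and 582.9 in lung at 90 mg/kg, against 165.8 and 125.5 in vehicle lung.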

How the data were processed

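The 32 arrays are mouse Illumina BeadChips, 2 for each of 4 organs and 4 treatments, per the labels. RNA was TRIzol-extracted and made into biotinylated cRNA, per the labels' protocols. The deposited intensity values were exported from GenomeStudio, per the submitters' processing notes (version not given in the sources used here). Between 22.0% and 22.5% of values per array lie below 0, and sorted values of the arrays differ by at most 1.0, so background subtraction and quantile normalization are read from the values. Samples were grouped by the labels, and 64 columns of another table were not used because its header repeats sample names. Of 25697 probes 23978 carried 1 gene symbol, none carried several and 1719 were unnamed, and 23962 matched by identifier.

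A gene took its brightest probe over the 32 arrays (4777 of 16593 genes had several). A value was detected above 1.645 noise SDs, estimated from values below 0, a threshold of 7.82 to 7.914, which 55.5% to 56.0% of probes in vehicle arrays passed. Values were floored at 0, 16 was added, and log2 values were fitted with limma 3.58.1 (lmFit, eBayes) in R 4.3.3, with 1 coefficient per organ over the 8 vehicle arrays. All adjusted p-values are from limma with Benjamini-Hochberg adjustment over the 11851 genes tested, called at 0.05, and errors (±) are standard errors of the log2 difference. Where no array of an organ was detected, the "at least" fold sets each dim array at the higher of its own value and its lowest detected signal, 7.9. Treated arrays were fitted alone, and all 32 arrays for changes with dose. The script was tested on simulated data. Tables and figures used Python 3.11.15, pandas 2.3.3, numpy 2.4.6 and matplotlib 3.10.9.

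The comparison, the 38 gene lists (810 genes, 731 on the array) and the tests were chosen with earlier results of these data known. Genes were named by rule: the 15 higher and 10 lower genes of largest margin, up to 4 called members of each list by margin (else 2 by size or p), and the 2 genes closest to each organ among those shared with it. Outside the rule, and after their values were seen, were named Abca3, Ace, Adipoq, Alb, Aqp1, Bpifa1, Cftr, Chil3, Cyp2f2, Dcn, Ednrb, Foxa2, Foxj1, Gata6, Gramd2, Hc, Hopx, Kdr, Lum, Marco, Mrc1, Napsa, Nppa, Pecam1, Reg3g, Rsph1, S100a8, Scnn1a, Siglecf, Tff2, Vwf and Wfdc2. Alternatives changed the offset, floor, normalization, centring, probe choice, detection filter, replicates and replicate block.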

Additional observations from a re-analysis of the deposited data

Results flagged for a closer look

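For 12 genes the difference of lung from the mean of the other organs at 90 mg/kg differed from that in vehicle by a limma interaction test over 32 arrays (adjusted p 0.00596 to 0.0271, 2 arrays per group). The change in this log2 difference was 2.18 for Slfn1, 1.96 for Slc6a2, 1.67 for Pknox2, 1.25 for Slc31a1 and 1.24 for Dpf1. It was -1.81 for Hc, -1.79 for Gpr153, -1.73 for Ndnf, -1.33 for Meis1, -1.32 for Osbpl3, -1.3 for Nptx1 and -1.09 for Mxra8. Slfn1, a schlafen family gene of lymphoid and myeloid cells, had 203.2 and 350.6 in lung at 90 mg/kg, against 34.5 and 23.6 in vehicle lung. Its spleen signal was also higher, with 519.1 and 454.7 at 90 mg/kg, against 167.5 and 185.3 in vehicle. Slc31a1, the copper transporter, had 1266.4 and 1963.7 in lung at 90 mg/kg, against 590.0 and 657.1 in vehicle lung. Hc, complement C5, had 738.5 and 341.4 in lung at 90 mg/kg, against 1818.5 and 2473.6 in vehicle lung. Its liver signal was also lower, with 996.7 and 1092.1 at 90 mg/kg, against 1614.6 and 1851.9 in vehicle. In all 12 genes the lung arrays at 90 mg/kg did not overlap those in vehicle, and the lung signal moved in the direction of the interaction. The 12 genes were picked by a test on these same values, so this adds no support to the test. Gpr153, Ndnf and Nptx1 were near background at 90 mg/kg.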

How the results depend on the processing

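Genes higher in lung than in each other organ numbered 1128 to 1429 under every alternative that gave this count, against 1350. Genes lower in lung numbered 493 with centring on genes detected in all 8 arrays, against 323, and 182 to 300 with single arrays left out, the lowest without lung array 2. For lung minus mean of testis, spleen and liver, 641 genes were called with the 6 other arrays as 1 group, against 7354, since differences between those organs then entered the error. The changes with dose numbered 88 with an offset of 50, against 12. Of 32 genes named by rule that had a second brightest probe, 21 kept direction and call against the mean on it. A further 6 lost the call and 5 reversed. The reversed lung-minus-mean differences were -0.07 for Gpm6a, -0.05 for Upk1b, -0.09 for Sfn, -0.12 for Col3a1 and -1.02 for Pfkfb4, and the cause was not tested. With the replicate number as a block, 7163 genes were called against the mean, 1318 and 297 were higher and lower than in each other organ, and 14 changed with dose. Deviations of same-numbered arrays correlated at -0.15 to 0.04. These correlations cannot tell if same-numbered arrays share an animal, because the 2 arrays of an organ can differ for other reasons. The main fit did not pair them. With 2 arrays per group, small differences and dim probes near the detection threshold are not resolved.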

Other observations

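Of 18 tested genes of epithelial junctions and keratins, 8 were higher in lung than in each other organ, against 11.4% of all genes tested, and 5 were lower than in liver, near the 25.1% of all genes tested. Krt7, a keratin of simple epithelium, had 1307 and 1324 in vehicle lung, against 6.8 and 11.5 in testis, 22.1 and 8.2 in spleen and 17.9 and 18.2 in liver (log2 5.29 ± 0.23 over liver, adjusted p = 1.1e-06). Krt19, another simple keratin that is also made by mesothelium, had 328 and 298 in vehicle lung, against -2.4 and 1.0 in testis, 8.9 and 11.8 in spleen and 6.1 and -5.2 in liver, and both lung arrays lay above all others (log2 3.64 ± 0.20 over spleen, adjusted p = 5.54e-06). Tjp1, a scaffold of tight junctions, had 209 and 199.9 in vehicle lung, against 28.3 and 9.9 in testis, 11.6 and 4.3 in spleen and 13.0 and 42.0 in liver, a margin of log2 2.43 ± 0.37 over liver (adjusted p = 0.00065).

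The promoters of the 100 genes with the largest margin in lung (85 promoters of 65 genes in the RefSeq table) had a median GC content of 56.7% and a median of 9 CpG dinucleotides in 300 bases. Promoters of all genes higher in lung than in each other organ had 61.3% and 17, and those of all genes tested had 59.0% and 17.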
